A study of Mus musculus with 8 samples.

Results

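The 43 genes described here encode the machinery that copies DNA in S phase and the enzymes that supply it with deoxynucleotides. They were listed by gene name, with earlier results of these data known. The list held 13 licensing and helicase genes, 9 polymerase and primase subunits, and the clamp PCNA with 5 clamp loader subunits. It also held 5 genes for Okazaki fragments and single-stranded DNA, 4 for nucleotide supply, 3 for chromatin assembly and 3 S-phase regulators. All 43 symbols had 1 row each among the 20793 rows of the expression table. All 43 were also among the 11968 rows that reached 1 FPKM in at least 2 libraries and entered the tests. FPKM is a fragment count scaled by transcript length and by library size, so levels are scaled by length and can be set side by side between genes.

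RNA-seq was done on 8 libraries of brain neural progenitor cells, dividing precursors of neurons and glia, from FvB/C57BL/6 mice. The differentiating state was 5 days in neurobasal medium with B27 supplement, and it held the libraries FUBP1-D (FUBP1-targeted), CIC-D (CIC-targeted), and 7 and GFP-D (both non-targeted, NT). The proliferating state was growth with EGF and bFGF (20 ng/ml) in N2 medium, and it held FUBP1 (FUBP1-targeted), CIC (CIC-targeted), and TRC and GFP (both NT). FUBP1 binds single-stranded nucleic acid and acts on transcription and on splicing. CIC is a transcriptional repressor. The labels describe knockdown by lentiviral hairpins with 3 days of puromycin, for FUBP1 in so many words and for no other construct. Each targeted gene thus had 1 library per state, and each state had 2 NT libraries. Nothing in the labels says that the libraries came from separate cultures, so p-values here reflect how far these libraries scatter, and that scatter may be technical.

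A replication origin is licensed when CDC6 and CDT1 load the ring-shaped MCM2 to MCM7 helicase onto DNA, and geminin (Gmnn) blocks CDT1 once S phase has begun. CDC45 and the GINS complex then turn the ring into a moving helicase, behind which polymerase alpha-primase, delta and epsilon copy the strands with the help of PCNA and its loader RFC. E2F transcription factors with cyclin E drive many of these genes at the entry to S phase, and cells that leave the cycle shut them down.

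FPKM carries no fragment counts, so the libraries' depth is unknown. Sums of FPKM per library ran from 426984 to 541608, and between 10702 (CIC) and 11529 (FUBP1-D) rows reached 1 FPKM. The targeted genes checked the labels only in part. Fubp1 stood at 21.6 FPKM in FUBP1-D, against 24.8 and 25.4 FPKM in 7 and GFP-D, and at 34.8 FPKM in FUBP1, against 50.2 FPKM in TRC but 12.4 FPKM in GFP. The lowest Fubp1 level of the 8 libraries was thus in an NT library, and every FUBP1 direction given here is that of the library labelled FUBP1. Cic stood at 25.6 FPKM in CIC-D, against 42.0 and 35.3 FPKM in 7 and GFP-D, and at 13.3 FPKM in CIC, against 39.4 and 33.8 FPKM in TRC and GFP, below both NT libraries in each state. All 8 progenitor markers reached 1 FPKM in at least 1 library, with Prom1 listed at 0 in CIC and below 1 FPKM in CIC-D, GFP-D and GFP, and their sum was 2992 to 4698 FPKM in differentiating and 3717 to 5315 FPKM in proliferating libraries. Most of that sum was Vim (1666 to 3842 FPKM over the 8 libraries); Fabp7 (-2.82) and Olig2 (-1.45) fell in the limma fit of differentiation described further on, and the other 6 markers had positive estimates that did not pass it. The 5 astrocyte markers summed to 574 to 735 FPKM in differentiating and 119 to 212 FPKM in proliferating libraries, and the 3 ependyma markers to 31.3 to 49.1 FPKM and 4.06 to 11.9 FPKM in the same order. In the same fit 3 of the 5 astrocyte markers were called higher, and 1 had a negative estimate (-0.43). Of the 2 ependyma markers tested 1 was called higher. Neuron markers summed to 37.9 to 61.5 FPKM in differentiating and 27.8 to 58.6 FPKM in proliferating libraries, nearly all of it Map2, and 3 of the 5 (Dcx, Rbfox3 and Syt1) never reached 1 FPKM. Oligodendrocyte markers summed to 2.80 to 24.2 FPKM in differentiating and 0.790 to 1.15 FPKM in proliferating libraries. In the fit of differentiation 1 of the 2 neuron markers tested and 1 of the 2 oligodendrocyte markers tested were called higher. Microglia, endothelium and mesenchyme markers stayed at sums of at most 6.49 FPKM in any library, and the endothelial Cldn5 was listed at 0 in all. In these bulk libraries fewer dividing cells and less RNA per cell cannot be told apart. The part of the shifts in astrocyte, ependyma, neuron and oligodendrocyte markers in the values that follow was not tested.

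The start regions of the genes were read from RefSeq (mouse build GRCm38.p6), which held 40 promoter windows for 35 of the 43 genes. Each window ran from 250 bases before to 50 bases after an annotated start. Ccne2, Gins1, Gins2, Gmnn, Mcm4, Pole, Prim2 and Rfc2 are named only. The letters TTTCCCGC, TTTGGCGC, TTTCGCGC and TTTGCCGC, forms of the E2F motif, were searched on both strands. At least 1 of them was in a window of 13 of the 35 genes (37.1%), against 1 of 17 mitosis and spindle genes (5.88%), 433 of the 9006 expressed genes with a window (4.81%) and 744 of all 32851 windows (2.26%). The 13 genes were Mcm3, Mcm5, Mcm6, Mcm7, Cdc6, Cdt1, Gins3, Pola1, Pold1, Pold3, Pole2, Rfc3 and Lig1, so 7 of them belong to the licensing and helicase group. The CHR letters TTTGAA, typical of genes of G2 and mitosis, were in 5 of the 35 genes (14.3%), against 12 of 17 mitosis genes (70.6%), 13.5% of expressed genes and 17.9% of all windows. CCAAT was in 20 of the 35 genes (57.1%), against 14 of 17 mitosis genes (82.4%), 43.7% of expressed genes and 37.4% of all windows. These are letter matches and not measured binding sites.

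**Figure D1:**
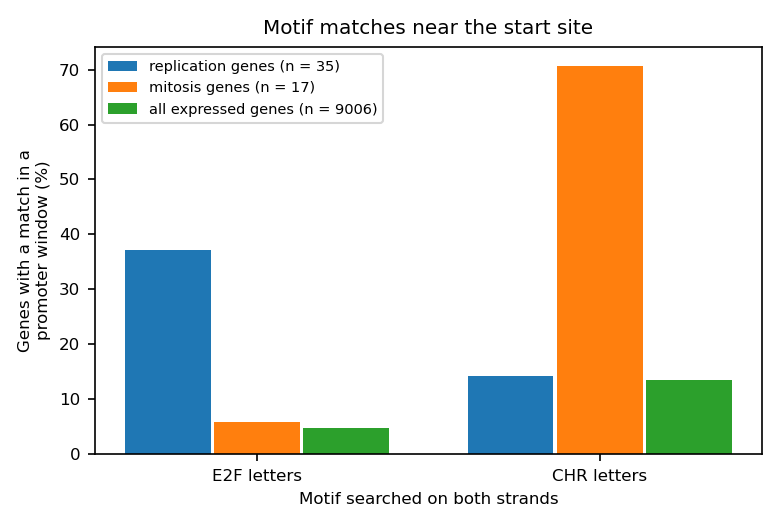
Percentage of genes with at least 1 match of the E2F letters or of the CHR letters in a 300-base start window, for replication genes (35), mitosis genes (17) and all expressed genes (9006). E2F letters were most frequent in replication genes (37.1%) and CHR letters in mitosis genes (70.6%).

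The windows of 6 genes are shown as examples and not as a ranking. Mcm5, Mcm6 and Mcm3 are helicase subunits with E2F letters and large falls on differentiation. Pold3 has a match and no call, Tk1 has a large fall and no match, and Rpa1 has neither a match nor a call. Rrm2 (-4.19), Asf1b (-3.79) and Mcm2 (-3.50), not shown, fell further than Mcm6 (-3.43) on the log2 scale and have no match. Each is given 5′ to 3′ on the gene's strand, with E2F letters in capitals. In Mcm5 and in Mcm6 the longer run of capitals is a pair of overlapping matches on opposite strands.

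Mcm5 (chr8:75109259-75109558, plus strand): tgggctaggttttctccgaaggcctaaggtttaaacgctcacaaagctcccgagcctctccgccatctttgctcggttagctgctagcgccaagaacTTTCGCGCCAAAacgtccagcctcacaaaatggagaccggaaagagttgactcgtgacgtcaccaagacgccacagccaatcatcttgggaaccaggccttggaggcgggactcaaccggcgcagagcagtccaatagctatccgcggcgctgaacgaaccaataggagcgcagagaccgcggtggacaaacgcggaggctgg

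Mcm6 (chr1:128359656-128359955, minus strand): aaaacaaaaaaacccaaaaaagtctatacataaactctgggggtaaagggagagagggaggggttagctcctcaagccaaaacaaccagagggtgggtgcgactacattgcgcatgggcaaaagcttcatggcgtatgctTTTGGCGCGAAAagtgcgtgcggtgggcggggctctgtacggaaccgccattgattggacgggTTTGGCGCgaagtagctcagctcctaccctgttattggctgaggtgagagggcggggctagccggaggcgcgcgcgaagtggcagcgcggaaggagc

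Mcm3 (chr1:20820263-20820562, minus strand): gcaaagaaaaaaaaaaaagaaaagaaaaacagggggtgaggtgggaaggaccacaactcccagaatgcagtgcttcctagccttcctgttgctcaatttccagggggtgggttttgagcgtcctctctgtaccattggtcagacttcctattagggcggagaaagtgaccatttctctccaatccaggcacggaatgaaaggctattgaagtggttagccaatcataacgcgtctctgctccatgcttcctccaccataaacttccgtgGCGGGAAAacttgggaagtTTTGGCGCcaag

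Pold3 (chr7:100121453-100121752, minus strand): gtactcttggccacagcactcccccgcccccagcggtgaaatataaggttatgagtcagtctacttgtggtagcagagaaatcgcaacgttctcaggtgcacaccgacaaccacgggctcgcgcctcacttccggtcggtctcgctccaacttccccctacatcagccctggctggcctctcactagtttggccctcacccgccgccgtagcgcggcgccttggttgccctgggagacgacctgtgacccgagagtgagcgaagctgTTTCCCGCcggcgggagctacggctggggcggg

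Tk1 (chr11:117825965-117826264, minus strand): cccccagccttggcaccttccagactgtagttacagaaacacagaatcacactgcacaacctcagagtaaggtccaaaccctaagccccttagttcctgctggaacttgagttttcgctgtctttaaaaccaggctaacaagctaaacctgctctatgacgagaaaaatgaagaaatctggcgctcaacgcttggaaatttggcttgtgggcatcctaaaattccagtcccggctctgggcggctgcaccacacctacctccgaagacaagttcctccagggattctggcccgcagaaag

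Rpa1 (chr11:75348334-75348633, minus strand): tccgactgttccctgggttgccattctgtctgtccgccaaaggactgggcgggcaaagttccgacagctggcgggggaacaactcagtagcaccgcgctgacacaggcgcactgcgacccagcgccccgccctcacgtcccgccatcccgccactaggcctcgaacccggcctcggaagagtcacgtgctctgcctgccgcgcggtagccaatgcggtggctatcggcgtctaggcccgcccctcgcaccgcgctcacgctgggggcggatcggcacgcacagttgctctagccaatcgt

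Among the genes with a window, E2F letters were in 12 of the 32 that were called lower on differentiation, as reported next, and in 1 of the 3 that were not called, Pold3.

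The comparison of differentiating with proliferating cells asked how these genes differ between the 2 states. The states differed in stated growth factors, medium and supplement at once, so these cannot be told apart. Replication and nucleotide supply genes were lower in differentiating cells almost without exception. In a limma fit of log2(FPKM + 1) on state and targeted gene over the 8 libraries, 40 of the 43 genes fell and 0 rose at a Benjamini-Hochberg adjusted p under 0.05, while 17.7% of all 11968 rows were called lower and 21.2% higher. All 43 estimates were negative, with a median log2 change of -2.32, against 0.09 over all rows, of which 5480 had negative estimates. The median of the 43 genes was -2.68 to -1.69 over the alternatives. The estimate of Rpa1 turned to 0.0450 with quantile scaling and to 0.00201 without TRC. The scale understates the change of genes near 0, such as Cdc6. In 38 of the 43 genes every differentiating library lay below every proliferating one, as it did in 17.8% of all rows. Leaving out 1 library at a time gave 35 to 39 genes called lower: 39 without GFP, 35 without either library labelled FUBP1 and 39 without either library labelled CIC.

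**Figure D2:**
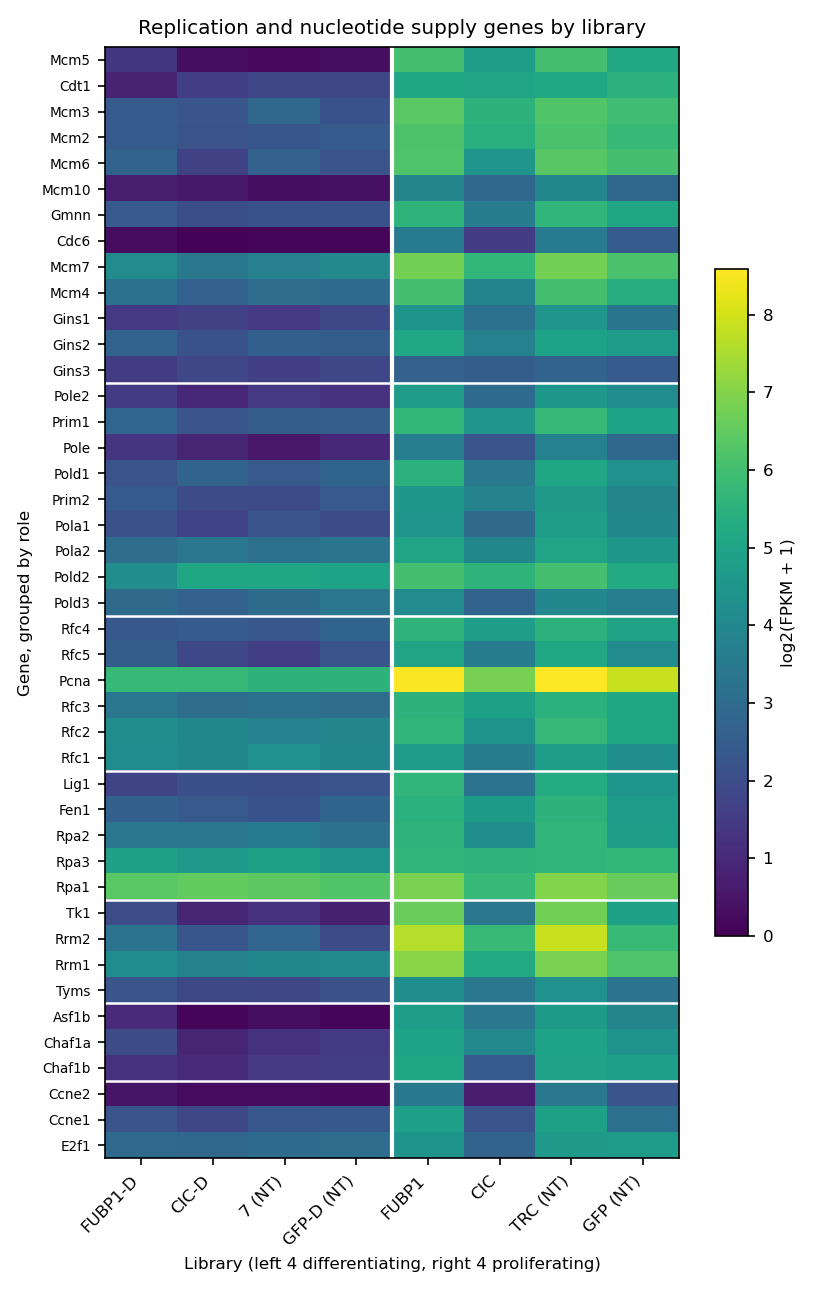
Level of the 43 genes, as log2(FPKM + 1), in the 4 differentiating libraries (left) and the 4 proliferating libraries (right), with genes grouped by role and sorted by fitted change. The right side is lighter in nearly all rows, the CIC column is the darkest of the proliferating ones, and Rpa1 is bright throughout.

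In the licensing and helicase group all 13 genes fell, with a median log2 change of -2.77. Mcm5, a subunit of the helicase ring (mm9 chr8:77633427-77652338), had the largest fall of all 43 genes. Its level was 1.64, 0.256, 0.175 and 0.241 FPKM in FUBP1-D, CIC-D, 7 and GFP-D, against 65.9, 26.9, 65.6 and 33.2 FPKM in FUBP1, CIC, TRC and GFP. Every proliferating library was more than an order of magnitude above every differentiating one, and FUBP1-D stood above the other 3 differentiating libraries. The fitted log2 change was -4.94 ± 0.27 (SE, limma adjusted p = 4.85e-04), and the mean differentiating level was 1.21% of the mean proliferating level.

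The other ring subunits did not fall to the same depth. Mcm3 changed by -3.62, Mcm2 by -3.50, Mcm6 by -3.43, Mcm7 by -2.49 and Mcm4 by -2.34 on the log2 scale. Mcm7 kept 16.8, 9.94, 12.4 and 15.5 FPKM in FUBP1-D, CIC-D, 7 and GFP-D, against 109, 50.2, 109 and 68.6 FPKM in FUBP1, CIC, TRC and GFP. Mcm6 had 5.72, 2.21, 5.56 and 3.72 FPKM in FUBP1-D, CIC-D, 7 and GFP-D, against 74.1, 21.2, 80.6 and 64.6 FPKM in FUBP1, CIC, TRC and GFP. Mcm4 had 8.29, 5.44, 7.45 and 7.06 FPKM in FUBP1-D, CIC-D, 7 and GFP-D, against 65.5, 13.8, 65.5 and 40.2 FPKM in FUBP1, CIC, TRC and GFP. In both genes CIC was the lowest proliferating library and CIC-D the lowest differentiating one. The ring holds its 6 subunits in equal number, yet the ratio of the highest to the lowest subunit level, which was Mcm7 over Mcm5 in each differentiating library, was 10.3, 38.9, 71.0 and 64.5 in FUBP1-D, CIC-D, 7 and GFP-D, against 1.67, 3.65, 1.66 and 2.07 in FUBP1, CIC, TRC and GFP. The wide ratios in differentiating libraries rested on Mcm5, at 0.175 to 1.64 FPKM. The lowest of the other subunits had 4.34 (Mcm3), 2.21 (Mcm6), 3.92 (Mcm2) and 3.51 FPKM (Mcm3) in FUBP1-D, CIC-D, 7 and GFP-D. Those levels lay much nearer to that of Mcm7 than Mcm5 did.

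Among the loading factors, Cdt1, which brings the ring to the origin, stood at 0.829, 2.02, 2.54 and 2.56 FPKM in FUBP1-D, CIC-D, 7 and GFP-D, against 32.2, 31.6, 33.4 and 44.9 FPKM in FUBP1, CIC, TRC and GFP. The CIC level was close to those of FUBP1 and TRC, and GFP was highest. Its fitted change was -3.65 ± 0.21 (SE, limma adjusted p = 4.85e-04). Its inhibitor Gmnn had 4.32, 3.14, 3.45 and 3.52 FPKM in FUBP1-D, CIC-D, 7 and GFP-D, against 46.4, 11.2, 49.0 and 32.0 FPKM in FUBP1, CIC, TRC and GFP, a change of -2.77 ± 0.32 (SE, limma adjusted p = 0.0013). The level of Cdt1 relative to Gmnn was 0.192, 0.643, 0.736 and 0.727 in FUBP1-D, CIC-D, 7 and GFP-D, against 0.693, 2.83, 0.683 and 1.40 in FUBP1, CIC, TRC and GFP. FUBP1-D was lowest and CIC highest in this ratio.

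Cdc6, the ATPase that loads the ring together with CDT1, was the lowest of the 43 genes in differentiating cells. It had 0.229, 0.0539, 0.0913 and 0.104 FPKM in FUBP1-D, CIC-D, 7 and GFP-D, against 10.4, 1.80, 10.5 and 4.63 FPKM in FUBP1, CIC, TRC and GFP. With a change of -2.60 ± 0.36 (SE, limma adjusted p = 0.00245) its fall looks moderate on a scale with a pseudocount of 1, but its level was below 1 FPKM in each differentiating library, as were those of Mcm10 (change -2.88), a scaffold of the early fork, and of cyclin E2.

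The 3 GINS subunits among the 43 genes, cofactors of the active helicase, fell by 2.27 (Gins1), 2.13 (Gins2) and 0.91 (Gins3) on the log2 scale, and the other subunit, Gins4, by 0.80 (limma adjusted p = 0.00859). Gins3 was the least changed of the group and the lowest of all 43 genes in proliferating cells. It had 1.87, 2.59, 1.99 and 2.51 FPKM in FUBP1-D, CIC-D, 7 and GFP-D, against 5.43, 4.74, 5.67 and 4.43 FPKM in FUBP1, CIC, TRC and GFP. The states did not overlap, and the change was -0.91 ± 0.20 (SE, limma adjusted p = 0.0109), although the call was lost without either library labelled FUBP1.

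Of the 9 polymerase and primase subunits 8 fell, with a median log2 change of -2.06. Pole2, the second subunit of the leading-strand polymerase epsilon, had 1.86, 0.965, 1.69 and 1.36 FPKM in FUBP1-D, CIC-D, 7 and GFP-D, against 26, 7.03, 22.7 and 17.0 FPKM in FUBP1, CIC, TRC and GFP. The states were well apart, and the change was -2.84 ± 0.25 (SE, limma adjusted p = 7.54e-04). Its catalytic partner Pole changed by -2.19. The primase subunits Prim1 and Prim2 changed by -2.67 and -2.06, and the polymerase alpha subunits Pola1 and Pola2 by -2.03 and -1.41, all called.

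The subunits of polymerase delta, which copies the lagging strand, went apart. The catalytic Pold1 averaged 4.84 ± 1.09 FPKM in differentiating and 26.8 ± 15.4 FPKM in proliferating libraries (SD, n = 4 each), a log2 change of -2.07. Pold2 averaged 28.3 ± 7.11 FPKM and 53.3 ± 13.9 FPKM in the same order, a change of -0.89 ± 0.28 with an adjusted p of 0.0404 in limma, and 9 of 16 alternative settings lost that call. Pold3 (mm9 chr7:107230623-107270010), also a subunit of polymerase zeta, had 6.73, 5.44, 7.20 and 9.70 FPKM in FUBP1-D, CIC-D, 7 and GFP-D, against 16.7, 5.69, 14.6 and 11.6 FPKM in FUBP1, CIC, TRC and GFP. The states overlapped through the CIC library alone, and its change of -0.60 ± 0.23 (SE) did not pass the limma test (adjusted p = 0.0749). The other subunit, Pold4, which is not among the 43 genes, had a positive estimate of 0.41 that did not pass either (limma adjusted p = 0.250).

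In the clamp and clamp loader group 5 of 6 genes fell, with a median log2 change of -2.19. Pcna, the sliding clamp (mm9 chr2:132075022-132078916), had the highest level of the 43 genes in proliferating cells. Its level was 53.2, 51.6, 46.2 and 46.1 FPKM in FUBP1-D, CIC-D, 7 and GFP-D, against 371, 113, 383 and 232 FPKM in FUBP1, CIC, TRC and GFP. The differentiating libraries lay close together and the proliferating ones did not, and the change was -2.31 ± 0.31 (SE, limma adjusted p = 0.00216).

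The loader subunits fell unevenly. Rfc4 had 4.19, 4.70, 4.07 and 5.75 FPKM in FUBP1-D, CIC-D, 7 and GFP-D, against 46.6, 27.0, 44.9 and 30.1 FPKM in FUBP1, CIC, TRC and GFP, and its change of -2.72 ± 0.23 (SE, limma adjusted p = 6.60e-04) was the largest of the group. Rfc5 changed by -2.43, Rfc3 by -2.08 and Rfc2 by -1.25. Rfc1, the large subunit specific to the replicative loader (mm9 chr5:65653091-65726878), had 16.9, 14.5, 19.3 and 14.5 FPKM in FUBP1-D, CIC-D, 7 and GFP-D, against 25.4, 11.5, 27.3 and 18.4 FPKM in FUBP1, CIC, TRC and GFP. Its states overlapped, and its change of -0.27 ± 0.23 (SE) did not pass the limma test (adjusted p = 0.374).

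Of the 5 genes for Okazaki fragments and single-stranded DNA 4 fell, with a median log2 change of -1.71. Lig1, the ligase that joins the fragments, had 2.40, 3.28, 3.20 and 3.77 FPKM in FUBP1-D, CIC-D, 7 and GFP-D, against 49.7, 8.71, 37.8 and 21.6 FPKM in FUBP1, CIC, TRC and GFP, a change of -2.63 ± 0.41 (SE, limma adjusted p = 0.00354). Fen1, the nuclease that trims their flaps, changed by -2.61. Both genes were thus far below their proliferating levels in each differentiating library.

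The 3 subunits of RPA, which coats single-stranded DNA in replication and in repair, differed from each other. Rpa2 changed by -1.71 and Rpa3 by -0.91, both called in limma. Rpa1 (mm9 chr11:75113761-75161885) had 82.5, 91.5, 85.6 and 75.8 FPKM in FUBP1-D, CIC-D, 7 and GFP-D, against 115, 52.4, 127 and 95.0 FPKM in FUBP1, CIC, TRC and GFP. It had the highest level of the 43 genes in differentiating cells, the states overlapped through the CIC library alone, and its change of -0.14 ± 0.25 (SE) did not pass the limma test (adjusted p = 0.677) and turned sign with quantile scaling and without TRC, as given above. A p above the threshold does not show that Rpa1 was unchanged. In all, 7 of the 43 genes kept at least 10 FPKM in all 4 differentiating libraries: Rpa1, Rpa3, Pcna, Pold2, Rfc1, Rfc2 and Rrm1.

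All 4 nucleotide supply genes fell, with a median log2 change of -3.25. Tk1, the cytosolic thymidine kinase of dividing cells (mm9 chr11:117676833-117687328), had 3.06, 0.846, 1.32 and 0.705 FPKM in FUBP1-D, CIC-D, 7 and GFP-D, against 97.3, 9.69, 106 and 29.2 FPKM in FUBP1, CIC, TRC and GFP. Its proliferating levels were spread over an order of magnitude, with CIC lowest, and its change was -4.20 ± 0.52 (SE, limma adjusted p = 0.0016). Rrm2, the S-phase small subunit of ribonucleotide reductase (mm9 chr12:25393119-25399011), had 8.54, 3.94, 6.02 and 2.97 FPKM in FUBP1-D, CIC-D, 7 and GFP-D, against 198, 54.2, 233 and 55.1 FPKM in FUBP1, CIC, TRC and GFP, a change of -4.19 ± 0.45 (SE, limma adjusted p = 0.00114).

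The large subunit of the same enzyme fell less. Rrm1 averaged 15.3 ± 1.73 FPKM in differentiating and 89.1 ± 42.7 FPKM in proliferating libraries (SD, n = 4 each), a log2 change of -2.32. Tyms, thymidylate synthase, had 3.81, 2.60, 2.58 and 3.36 FPKM in FUBP1-D, CIC-D, 7 and GFP-D, against 18.3, 9.93, 19.1 and 8.59 FPKM in FUBP1, CIC, TRC and GFP, a change of -1.81 ± 0.26 (SE, limma adjusted p = 0.00276). It was the least changed of the group.

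A pair of enzymes that do the same chemistry outside S phase were higher in differentiating cells. Tk2, the mitochondrial thymidine kinase, had 13.3, 15.1, 15.9 and 13.5 FPKM in FUBP1-D, CIC-D, 7 and GFP-D, against 5.84, 4.66, 5.62 and 8.84 FPKM in FUBP1, CIC, TRC and GFP, and rose by 1.12 ± 0.21 (SE, limma adjusted p = 0.00638). Rrm2b, the p53-inducible small subunit of the reductase, rose by 0.55 ± 0.17 (SE, limma adjusted p = 0.0389). The states overlapped in Rrm2b, with 6.03 FPKM in CIC-D below 6.48 FPKM in GFP. The ratio of Tk1 to Tk2 levels was 0.229, 0.0560, 0.0831 and 0.0524 in FUBP1-D, CIC-D, 7 and GFP-D, against 16.6, 2.08, 18.9 and 3.30 in FUBP1, CIC, TRC and GFP. The ratio of Rrm2 to Rrm2b levels was 1.02, 0.653, 0.578 and 0.334 in FUBP1-D, CIC-D, 7 and GFP-D, against 39.8, 12.5, 40.5 and 8.50 in FUBP1, CIC, TRC and GFP. The S-phase isozyme led in each proliferating library, and in differentiating libraries it lay below the other one except for Rrm2 in FUBP1-D, where the pair was about equal.

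**Figure D3:**
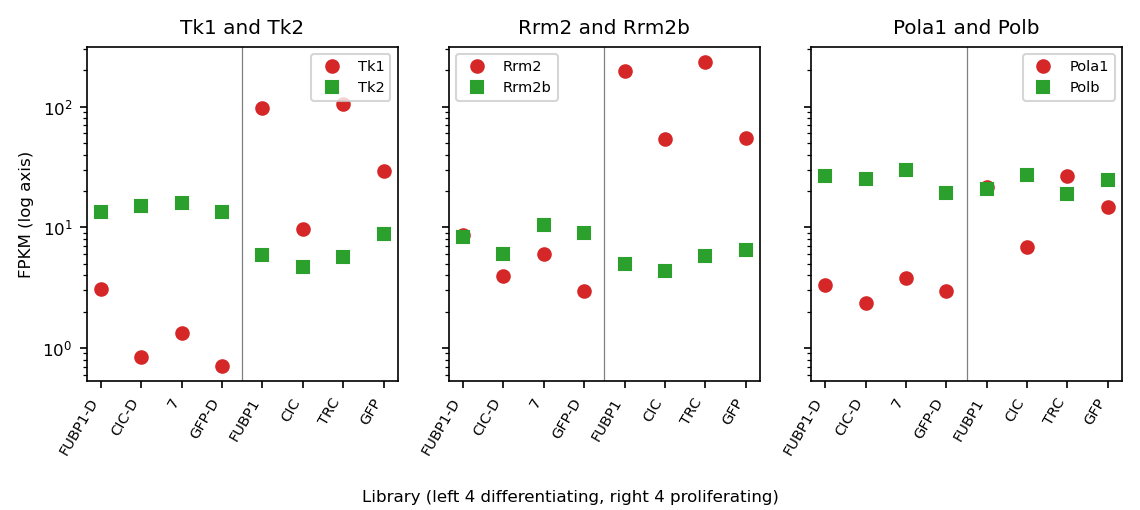
FPKM (log axis) of Tk1 and Tk2, Rrm2 and Rrm2b, and Pola1 and Polb in the 4 differentiating libraries (left of each line) and the 4 proliferating ones (right). Tk1 was 0.705 to 3.06 FPKM in differentiating and 9.69 to 106 FPKM in proliferating libraries, while Polb, the base excision repair polymerase, lay between 18.9 and 29.8 FPKM in all 8.

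All 3 chromatin assembly genes fell, with a median log2 change of -3.22. Asf1b, a histone H3-H4 chaperone of dividing cells, had 1.09, 0.0812, 0.242 and 0.0846 FPKM in FUBP1-D, CIC-D, 7 and GFP-D, against 26.5, 9.56, 24.8 and 14.0 FPKM in FUBP1, CIC, TRC and GFP, a change of -3.79 ± 0.25 (SE, limma adjusted p = 5.84e-04). The subunits of CAF-1, which places new histones behind the fork, changed by -3.22 (Chaf1a) and -3.02 (Chaf1b). Chaf1b (mm9 chr16:93884146-93906351) had 1.34, 1.04, 1.70 and 1.97 FPKM in FUBP1-D, CIC-D, 7 and GFP-D, against 33.0, 4.45, 30.1 and 27.8 FPKM in FUBP1, CIC, TRC and GFP. The CIC library was nearer to the differentiating libraries than to the other proliferating ones in Chaf1b.

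The 3 S-phase regulators fell, with a median log2 change of -1.56, but the calls of Ccne1 and E2f1 were unstable. Ccne2, cyclin E2, had 0.393, 0.187, 0.231 and 0.160 FPKM in FUBP1-D, CIC-D, 7 and GFP-D, against 10.1, 0.617, 9.88 and 3.81 FPKM in FUBP1, CIC, TRC and GFP, a change of -2.16 ± 0.46 (SE, limma adjusted p = 0.0106). Ccne1, cyclin E1, changed by -1.56 ± 0.46 (SE, limma adjusted p = 0.0324). E2f1, the activator that drives S-phase genes (mm9 chr2:154385375-154395588), had 6.63, 6.38, 7.03 and 7.47 FPKM in FUBP1-D, CIC-D, 7 and GFP-D, against 20.9, 5.70, 24.1 and 25.2 FPKM in FUBP1, CIC, TRC and GFP. The 3 other proliferating libraries lay well above the differentiating ones, CIC lay below them, and the change was -1.16 ± 0.32 (SE, limma adjusted p = 0.0244). Of 16 alternative settings 7 lost the call of Ccne1, 7 that of E2f1 and 2 that of Ccne2.

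**Figure D4:**
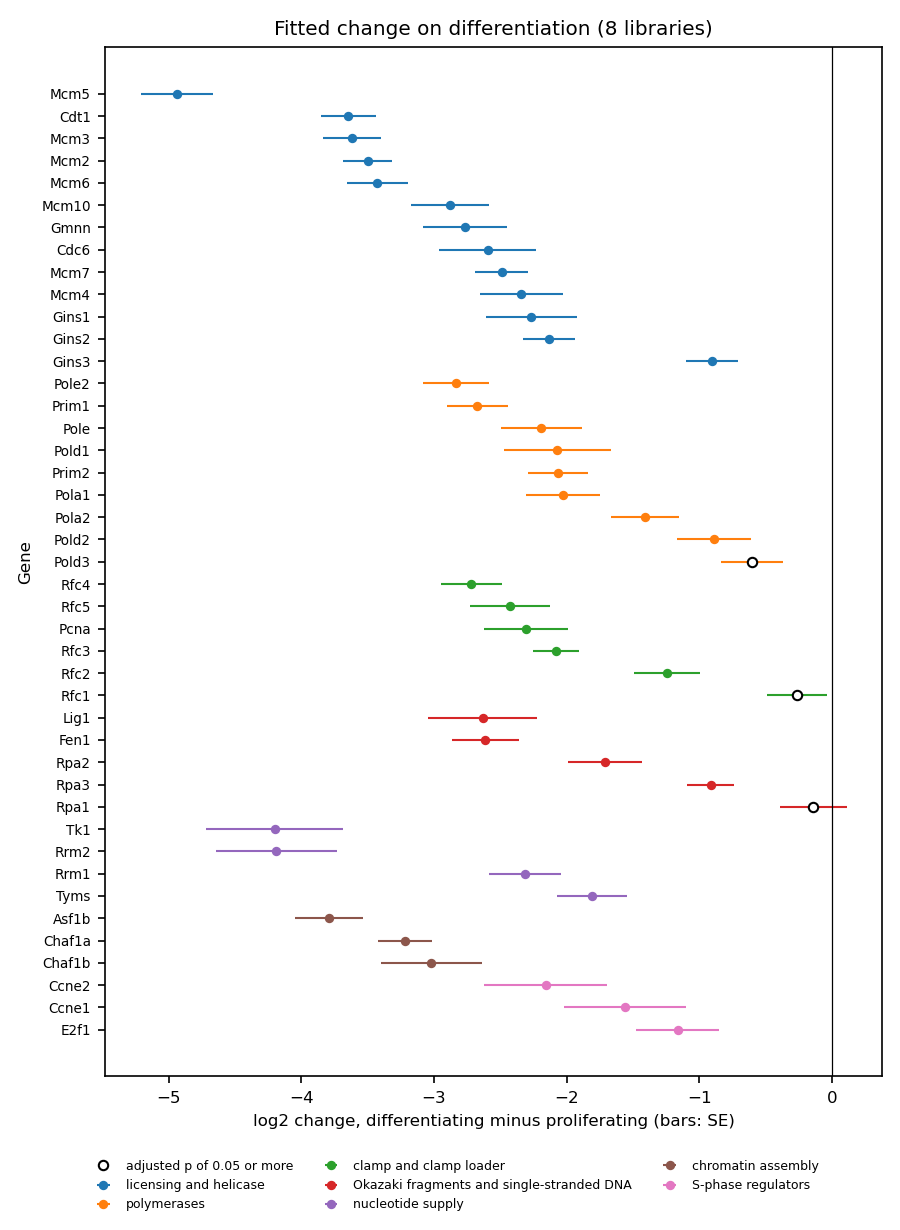
Fitted log2 change (differentiating minus proliferating) of the 43 genes with its SE, grouped by role, from limma over 8 libraries. Open circles mark the 3 genes that were not called (Pold3, Rfc1 and Rpa1), and all 43 points lie left of 0.

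Other genes of the same pathways were read in the same limma fit. Of 38 other origin and fork genes 28 fell and 0 rose (median log2 change -1.48), among them Top2a, topoisomerase II alpha (-4.20, adjusted p = 7.77e-04), Uhrf1, which guides maintenance methylation (-3.74, adjusted p = 9.73e-04), and Cdc45 (-2.86, adjusted p = 0.0019). Of 27 other nucleotide synthesis genes 18 fell and 2 rose (median -1.07). The mitochondrial folate enzymes Mthfd2 (-2.87) and Shmt2 (-2.60) and the dCTP-cleaving Dctpp1 (-2.44) led the falls, and the 2 that rose were Ctps2, a CTP synthase (1.10, adjusted p = 0.0129), and Pfas of purine synthesis (0.78, adjusted p = 0.0332). Of 17 tested genes of salvage and of supply outside S phase 7 fell, with Upp1 (-1.73), Dck (-1.39) and Dctd (-1.26) in front, and 4 rose, Tk2, Rrm2b and the mitochondrial deoxyguanosine kinase Dguok (0.92, adjusted p = 0.00667) among them.

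The repair and translesion polymerases gave a mixed picture in that fit: 2 of 11 fell, Polq (-1.75) and Polh (-1.0), and 3 rose, Polm (1.32), Poli (1.08) and Mad2l2 (0.68), with a median of 0.13. Polb did not pass the test (0.13 ± 0.20 SE, limma adjusted p = 0.632). Of 20 E2F, pocket protein and S-phase kinase genes 11 fell, led by Ccna2 (-4.02), Ccnd1 (-3.19) and E2f8 (-3.18), and 1 rose, the pocket protein Rbl2 (1.27, limma adjusted p = 0.0184). All 20 mitosis and spindle genes fell, with a median of -4.10 against -2.32 for the replication genes; Ube2c (-5.79), Cdc20 (-5.08) and Ccnb1 (-4.81) had the largest changes. The counts stand beside 17.7% lower and 21.2% higher among all rows, and no test compared 1 list with another.

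Within the NT libraries alone, 7 and GFP-D against TRC and GFP, the estimates of all 43 genes were again negative, with a median log2 change of -2.60. Of all 11968 rows 5519 had negative estimates. The median of the 43 genes was -2.98 to -1.75 over the alternatives. The limma fit on 6 group means called 20 of the 43 lower and 0 higher, against 0.886% of all rows called lower. An unadjusted p under 0.05 was reached by 3123 of all 11968 rows and by 39 of the 43 genes. The 20 were Mcm2 to Mcm7, Cdt1, Gmnn, Gins2, Prim1, Pole2, Rfc3, Rfc4, Pcna, Lig1, Tk1, Rrm1, Chaf1a, Chaf1b and Asf1b. Their adjusted p-values lay between 0.0435 and 0.0449, just under the threshold. The count was 0 without TRC, 0 without 7, 0 without GFP-D and 31 without GFP, a pseudocount of 5 also gave 0, and so did the absence of a filter on low values.

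The 2 NT libraries of the proliferating state differed in these genes. GFP was below TRC in 40 of the 43 genes, against 51.2% of all rows, and the median GFP level was 61.3% of the TRC level. Rrm2 had the lowest percentage (23.6%), and Cdt1 (134%), E2f1 and Rpa3 were the exceptions above 100%. The median log2 difference of GFP-D minus 7 was 0.06. Any value of a single proliferating library is thus set against an NT pair that itself was apart by a median of 0.69 on the log2 scale.

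The comparison of libraries labelled FUBP1 with NT gave no calls. In limma over both states 0 of the 43 genes were called higher or lower, 0% of all rows being called in either direction. An unadjusted p under 0.05 was reached by 256 of all 11968 rows and by 2 of the 43 genes. Those 2 were Mcm5 (0.81 ± 0.34 SE) and Cdt1 (-0.61 ± 0.25 SE), both with a limma adjusted p of 0.999. The median log2 difference was 0.26, with 38 positive and 5 negative estimates, against 0.02 over all rows, with 6420 positive and 5548 negative. The median of the 43 genes was -0.05 without the FUBP1 library and 0.43 without FUBP1-D.

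In the differentiating state FUBP1-D was above both NT libraries in 24 genes and below both in 11, against 34.9% and 28.3% of all rows, and the median difference to the NT mean was 0.17. Only Mcm5 was more than 1 log2 unit above both, a margin passed by 1.24% of all rows. The values of Mcm5, 1.64 FPKM in FUBP1-D and 0.175 and 0.241 FPKM in 7 and GFP-D, are low on any scale. The 20 mitosis genes were all above both NT libraries in FUBP1-D (median difference 1.57). Cdt1 was the gene furthest below NT in FUBP1-D (-0.96) and Pold2 the next (-0.79).

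In the proliferating state FUBP1 was above both NT libraries in 16 genes and below both in 3, against 26.7% and 27.7% of all rows. Its median difference was -0.02 to TRC and 0.66 to GFP, so the position of FUBP1 depended on which NT library it was set against. The mean of log2(FPKM + 1) over the 43 genes was 5.33 in FUBP1, 5.33 in TRC and 4.64 in GFP.

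The comparison of libraries labelled CIC with NT showed lower levels in the proliferating library and little in the differentiating one. In limma over both states 0 of the 43 genes were called, while 0.0919% of all rows were called lower. An unadjusted p under 0.05 was reached by 1368 of all 11968 rows and by 10 of the 43 genes, all 10 with negative estimates. Mcm6 had the smallest adjusted p (-1.26 ± 0.28 SE, limma adjusted p = 0.213). The median log2 difference was -0.55, with 42 of 43 estimates negative, against -0.04 over all rows, with 6507 of 11968 negative. The median of the 43 genes was -0.11 without the CIC library and -0.97 without CIC-D.

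In the proliferating state CIC was below both NT libraries in 40 of the 43 genes and above both in 0, against 39.9% and 31.4% of all rows. The 3 exceptions were Pold2, Gins3 and Tyms, which were below TRC and above GFP. The median difference to the NT mean was -0.99, and it was -1.29 to TRC and -0.63 to GFP. The gap was more than 1 log2 unit to both NT libraries in 11 genes, a margin passed on the low side by 5.65% of all rows: Chaf1b, Tk1, Ccne2, E2f1, Mcm4, Gmnn, Mcm6, Lig1, Cdc6, Pcna and Pole2. This is 1 library, so the difference has no replicate and no test in this state.

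The values of those genes show how far CIC stood from NT. Chaf1b had 4.45 FPKM in CIC, against 30.1 and 27.8 FPKM in TRC and GFP, or 15.4% of the NT mean. Ccne2 had 0.617 FPKM in CIC, against 9.88 and 3.81 FPKM in TRC and GFP, or 9.02% of the NT mean, the lowest percentage of the 43. E2f1 had 5.70 FPKM in CIC, against 24.1 and 25.2 FPKM in TRC and GFP, or 23.1% of the NT mean. Chaf1b and E2f1 were close in the NT pair, whereas Ccne2 and Tk1 were not, and Tk1 (9.69 FPKM in CIC, against 106 and 29.2 FPKM in TRC and GFP) was at 14.3% of the NT mean. Mcm4 had 13.8 FPKM in CIC, against 65.5 and 40.2 FPKM in TRC and GFP, or 26.1% of the NT mean.

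At the other end, Rpa3 had 47.4 FPKM in CIC, against 48.2 and 49.8 FPKM in TRC and GFP. Gins3 was at 93.7% and Pold2 at 91.7% of the NT mean. Cdt1 was at 94.6% of its TRC level but at 70.4% of its GFP level. Other gene groups did not all move with the replication genes in the CIC library. Among all rows 39.9% were below and 31.4% above both NT libraries in CIC. Of 38 other origin and fork genes 23 were below (60.5%) and 8 above (21.1%) both. The 20 mitosis genes had a median difference of 0.52 to the NT mean, -0.35 to TRC and 1.35 to GFP. Of them 5 were above (25%) and 1 below (5%) both. Of 27 other nucleotide synthesis genes 10 were below (37.0%, near the share of all rows) and 5 above (18.5%) both NT libraries (median difference -0.33). Among them Shmt2 had 441 FPKM in CIC, against 109 and 167 FPKM in TRC and GFP, and Mthfd2 had 81.7 FPKM in CIC, against 36.4 and 36.6 FPKM in TRC and GFP. The CIC library also had the fewest rows at 1 FPKM or more, 10702, and the part of this in the result was not tested.

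**Figure D5:**
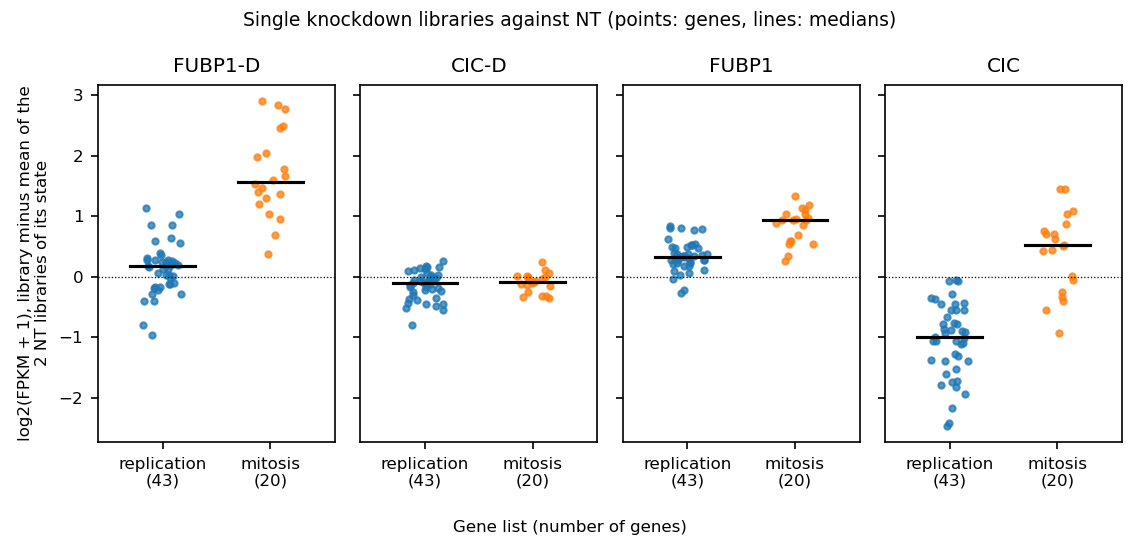
Difference in log2(FPKM + 1) between each library labelled FUBP1 or CIC and the mean of the 2 NT libraries of its state, for 43 replication and 20 mitosis genes, with points for genes and lines for medians. Replication genes had medians of 0.17 in FUBP1-D, -0.10 in CIC-D, 0.33 in FUBP1 and -0.99 in CIC; mitosis genes had 1.57, -0.08, 0.94 and 0.52.

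In the differentiating state CIC-D was below both NT libraries in 20 of the 43 genes and above both in 7, against 34.1% and 30.8% of all rows, with a median difference of -0.10. No gene was more than 1 log2 unit from both. The mean of log2(FPKM + 1) over the 43 genes was 2.33 in CIC-D, against 2.46 and 2.48 in 7 and GFP-D, and 3.94 in CIC, against 5.33 and 4.64 in TRC and GFP. The level of CIC thus lay between the proliferating NT libraries and the differentiating ones.

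Whether the change on differentiation itself differed with the label was tested as an interaction in the limma fit on 6 group means. For FUBP1 minus NT 0 of the 43 genes and 0% of all rows were called, and the median was -0.16, with -0.51 without TRC and 0.18 without GFP. For CIC minus NT 0 of the 43 genes and 0% of all rows were called. All 43 estimates were positive (median 0.93), against 6385 of all 11968 rows (median 0.05). The genes share the same libraries, so their signs are not independent. The median of the 43 genes was 0.43 to 1.31 over the alternatives. Rpa1, Rfc1 and E2f1 were the 3 genes with a higher level in CIC-D than in CIC: Rpa1 had 91.5 FPKM in CIC-D against 52.4 FPKM in CIC, Rfc1 had 14.5 FPKM in CIC-D against 11.5 FPKM in CIC, and E2f1 had 6.38 FPKM in CIC-D against 5.70 FPKM in CIC. In the NT libraries Rpa1 and E2f1 were lower in both 7 and GFP-D than in both TRC and GFP, whereas for Rfc1 7 (19.3 FPKM) lay above GFP (18.4 FPKM) and below TRC (27.3 FPKM).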

How the data were processed

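RNA of 8 mouse neural progenitor libraries was measured by RNA-seq. The authors deposited 1 table of FPKM values, 1 per gene and library. Per the submitters' processing notes the tools were bcl2fastq 2.17, cutadapt, TopHat2 2.0.11 and Cufflinks 2.1.1, with build mm9. The sources used here do not give their order, settings, annotation or use of strand. Genes that overlap a neighbour are uncertain for that reason, here Gins2 (Gse1), Pold2 (Aebp1), Rfc4 (Eif4a2), Lig1 (6330408A02Rik), Tk1 (Afmid) and Ccne2 (Ints8). Starts in the table count from 0, since in 7034 of 19176 comparable rows the span equals the annotated length on that reading, against 514 on the other; positions are printed counting from 1.

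FPKM was used without rescaling as log2(FPKM + 1), for rows that reached 1 FPKM in at least 2 libraries. Tests were two-sided limma 3.58.1 in R 4.3.3 (empirical Bayes, mean-variance trend) with Benjamini-Hochberg adjustment over 11968 rows and a threshold of 0.05, tested on simulated data. Differentiation and the FUBP1 and CIC labels came from an additive model with 4 residual degrees of freedom. The NT contrast and the interactions came from 6 group means with 2, both from the NT pairs, so that a lone library is taken to vary as NT libraries do. Any single library against the NT pair is a description. FPKM gives no depth, so no counting intervals are given.

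Values by library were given for the members with the largest and the smallest change of each role, the highest and lowest levels, and those more than 1 log2 unit from both NT libraries; a few others (Mcm7, Cdt1, Gmnn, Rpa3 and Mthfd2 among them) were added after their values were seen. The members and lists were chosen with earlier results of these data known. Promoters came from RefSeq (GRCm38.p6). Alternatives were the pseudocount (0.1 and 5), no filter, quantile and median-of-ratios scaling, 6 group means, a term for the GFP-named libraries and leaving out libraries.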

Additional observations from a re-analysis of the deposited data

Results flagged for a closer look

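Rpa1 and E2f1 were lower in the differentiating NT libraries than in the proliferating ones, but not lower in CIC-D than in CIC. For E2f1 the rise under the CIC label was slight, to 112% of its CIC level. Rpa1 had 91.5 FPKM in CIC-D against 52.4 FPKM in CIC, while 7 and GFP-D (85.6 and 75.8 FPKM) lay below TRC and GFP (127 and 95.0 FPKM). The interaction was 1.24 ± 0.48 on the log2 scale (SE), with a limma adjusted p = 0.998. E2f1 had 6.38 FPKM in CIC-D against 5.70 FPKM in CIC, while 7 and GFP-D (7.03 and 7.47 FPKM) lay below TRC and GFP (24.1 and 25.2 FPKM). Its interaction was 1.77 ± 0.46 on the log2 scale (SE), with a limma adjusted p = 0.998. Rfc1 was also higher in CIC-D (14.5 FPKM) than in CIC (11.5 FPKM), but its NT libraries overlapped between the states (19.3 and 14.5 FPKM in 7 and GFP-D, against 27.3 and 18.4 FPKM in TRC and GFP). Neither Rpa1 nor E2f1 passed the adjusted test, and each rests on 1 CIC library per state. Groups held 1 or 2 libraries, too few to look for a library that stands apart within its group.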

How the results depend on the processing

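The count of 40 replication genes called lower on differentiation was 35 to 41 over all alternatives: 40 with a pseudocount of 0.1, 40 with 5, 37 with no filter, 41 with quantile scaling (Pold3 gained), 40 with median-of-ratios scaling, 39 with 6 group means, 40 with a term for the GFP-named libraries and 35 to 39 on leaving out 1 library. It was 39 without both libraries labelled CIC, an alternative chosen after seeing the data. The calls that were lost were those of Pold2 (9 of 16 alternatives), Ccne1 (7), E2f1 (7), Ccne2 (2) and Gins3 (2). Of the 43 estimates only that of Rpa1, which was not called, turned sign: 0.0450 with quantile scaling and -0.455 to 0.00201 on leaving out 1 library, above 0 only without TRC. Within the NT libraries the count of 20 was 0 with a pseudocount of 5, 0 with no filter on low values, 23 with a pseudocount of 0.1, 29 with quantile scaling, 21 with median-of-ratios scaling, and 0 to 31 on leaving out 1 library; the cause was not tested. With the FUBP1 label, the CIC label and both interactions the count stayed 0 under the alternatives run. Small uncalled estimates turned sign on rescaling: with quantile scaling Pola2 (-0.0132) and Pold3 (-0.00946) for the FUBP1 label, Mcm10 (0.0216) for the CIC label, and Prim2 (0.0255) and Rfc3 (0.0170) for the FUBP1 interaction, and with median-of-ratios scaling Pold2 (0.0505) and Rpa3 (0.0633) for the CIC label. Rescaling moved the median of all rows on differentiation from 0.09 to about 0. The labels give no replicate numbers, but library names recur across states. The term for the GFP-named libraries, beside the terms for the targeted genes, is the block that pairs libraries by name, with TRC and 7 as the remaining pair, and it changed none of the 40 calls. FPKM without counts gives no measure of depth, and values below 1 FPKM, such as those of Cdc6, Ccne2 and Mcm10 in differentiating libraries, are imprecise.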
